A study of Mus musculus with 6 samples.

Results

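The small leucine-rich proteoglycans (SLRPs) were examined in PDPN+PDGFRα+ stromal cells sorted from MO5 melanomas. The family was chosen by gene name and holds 10 of the 53801 genes in the count table: Dcn (decorin), Bgn (biglycan), Aspn (asporin), Ecm2, Lum (lumican), Fmod (fibromodulin), Prelp, Omd (osteomodulin), Ogn (osteoglycin, also called mimecan) and Podn (podocan). MO5 is a B16 melanoma line that carries the ovalbumin gene, and the tumors grew under the skin of C57Bl/6 mice aged 8 to 12 weeks. DTR mice carry the ADAM12-DTR transgene, a bacterial artificial chromosome in which the Adam12 promoter drives the diphtheria toxin receptor together with a tetracycline transactivator, so that the toxin kills cells that use this promoter. Their littermates without the transgene, matched for sex, served as controls (Ctrl, labelled DTR-). Both groups received diphtheria toxin, and each is represented by 3 libraries, in which CD45+ and CD31+ cells had been gated out by the sort. The labels number the replicates but do not say whether each library came from a separate mouse, so the p-values measure the spread between these 6 libraries only. In these cells the question was whether removal of ADAM12+ cells changed the proteoglycan genes of the stromal cells that were left.

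SLRPs are secreted proteins of the extracellular matrix, built from a core of leucine-rich repeats that mostly carries chondroitin, dermatan or keratan sulfate chains. They bind fibrillar collagens and set the spacing and width of collagen fibrils, and several of them also bind growth factors and receptors, such as TGF-β and toll-like receptors. In connective tissue fibroblasts are their main source, and Dcn and Lum are widely used as fibroblast marker genes.

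The libraries held between 22339635 and 34271929 counts, and the median library had 25094827 (Ctrl) or 30748764 counts (DTR). Levels are given as CPM, counts scaled to a common library size, on which 3 counts, the limit that a count of 0 allows, are worth 0.0873 to 0.132 CPM (counting error only). Adam12, the gene whose promoter drives the receptor, was at 216, 181 and 175 CPM in Ctrl and at 165, 151 and 112 CPM in DTR, lower in every DTR library (edgeR quasi-likelihood test, Benjamini-Hochberg, log2 fold change -0.42 with SE 0.154, adjusted p = 0.602). All 9 listed melanoma markers were detected, and their summed level was 17078 to 19971 CPM in Ctrl and 15965 to 18816 CPM in DTR. The 6 fibroblast markers (Pdgfra, Pdpn, Pdgfrb, Thy1, Fap and Dpt) summed to only 183 to 422 CPM in Ctrl and 219 to 670 CPM in DTR. The sorting marker Pdgfra was at 125, 42.7 and 63.0 CPM in Ctrl and at 96.7, 54.0 and 132 CPM in DTR, and Pdpn at 73.3, 46.0 and 46.9 CPM in Ctrl and at 67.3, 49.0 and 99.2 CPM in DTR. The libraries thus contained fibroblast RNA in varying amounts beside much RNA of genes that define melanoma cells. In such bulk samples, fewer cells of a type and less RNA per cell cannot be told apart.

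The abundance of the family members was compared per kilobase of annotated exon, the scale on which levels of different genes can be set side by side. Dcn, which binds collagen I and TGF-β, had the highest level, at 27.6 ± 12.4 CPM per kb in Ctrl and 56.0 ± 41.6 in DTR (mean ± SD, n = 3 each). Bgn, its closest relative, had 26.1 ± 14.9 CPM per kb in Ctrl and 23.6 ± 2.84 in DTR. Ogn, Lum and Prelp followed with means over the 6 libraries of 22.2, 20.3 and 17.9 CPM per kb. These 5 genes were not separated cleanly, since Dcn was above Bgn in 4 of 6 libraries, Bgn above Ogn in 4, Ogn above Lum in 3 and Lum above Prelp in 5. Aspn, at 7.07 CPM per kb, was below Prelp in all 6 libraries. Podn (1.48 CPM per kb) was below Aspn and Ecm2 (0.845 CPM per kb) below Podn, again in all 6 libraries. Omd and Fmod, genes best known from bone and from tendon, were the least abundant, with 0.470 and 0.282 CPM per kb. Ecm2 exceeded Omd in 5 libraries, and Omd was above Fmod in only 1 library although its mean was higher. The mean level of Dcn was 148 times that of Fmod, over means that include DTR replicate 3, where Dcn was highest (103 CPM per kb) and Fmod lowest (0.0400). The order of the group means changed mainly through Ogn, which ranked 5 in Ctrl and 2 in DTR, while Bgn went from rank 2 to rank 4. This rests largely on DTR replicate 3, with Ogn at 58.5 and Bgn at 26.8 CPM per kb. In DTR replicate 1 they were at 25.1 and 21.4, and in DTR replicate 2 Ogn (13.4) was below Bgn (22.6). When the whole genomic span replaced the exon length, as would apply to reads from unspliced RNA, 1 of the 10 genes kept its rank and Bgn came first, at 12.3 CPM per kb of span.

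**Figure D1:**
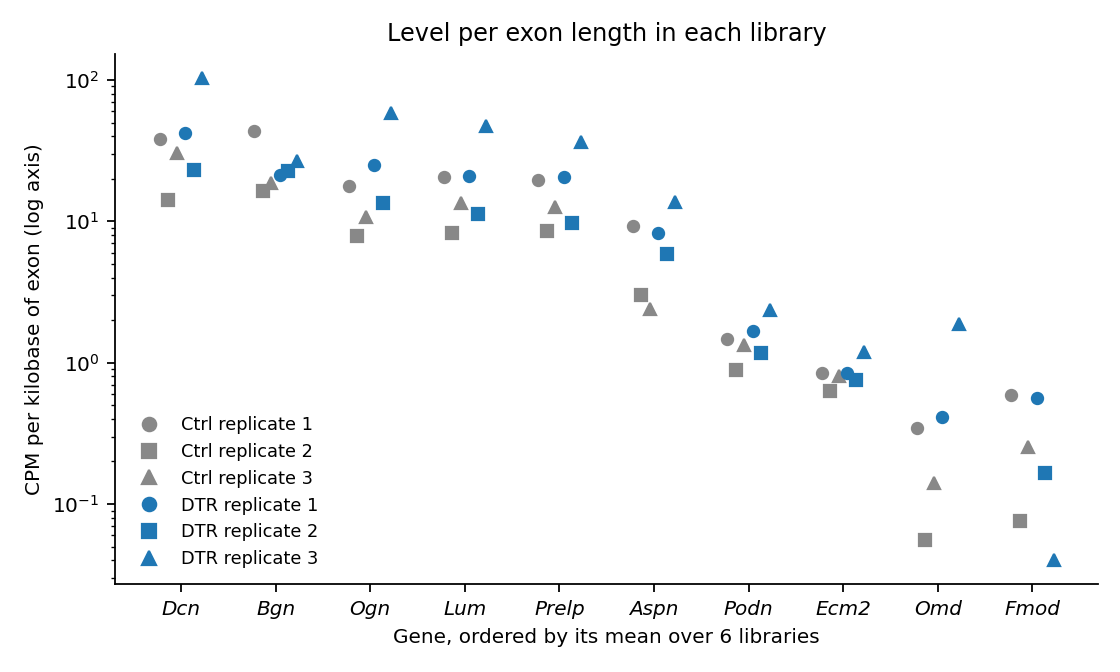
Level of each SLRP gene in CPM per kb of annotated exon (log axis), with points for the 3 Ctrl and the 3 DTR libraries and genes ordered by their mean over the 6 libraries (Omd in DTR replicate 2, at 0 counts, is not drawn). Dcn, Bgn, Ogn, Lum and Prelp share the top of the scale with overlapping points, from a mean of 41.8 for Dcn to 17.9 for Prelp, while Omd and Fmod lie below 1 on average.

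Summed over the 10 genes, SLRP transcripts reached 691, 268 and 415 CPM in Ctrl and 599, 395 and 1214 CPM in DTR. Dcn and Bgn together made up 62.7% to 70.7% of this sum in every library. The sum of DTR replicate 3 was the highest and that of Ctrl replicate 2 the lowest, and the other DTR libraries lay inside the Ctrl range.

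In DTR against Ctrl, none of the family members passed the test. All 10 were tested among 15133 genes, and 0 had an adjusted p under 0.05 (edgeR quasi-likelihood test, Benjamini-Hochberg), as did 0% of all genes tested, or 0 genes. DESeq2 called 0 members as well, and 0.151% of all genes it adjusted. At an unadjusted p under 0.05, 1 member, Ogn, was higher in DTR and 0 were lower, beside 7.92% of all genes tested (3.81% higher and 4.11% lower), and DESeq2 also had 1 member below that value, beside 4.89% of its genes. In 0 of 10 members were the 3 DTR libraries separated from the 3 Ctrl libraries, beside 14.5% of all genes tested (6.32% higher and 8.18% lower). The fitted log2 fold change was above 0 for 8 members and below 0 for Bgn and Fmod, beside 49.6% above 0 among all genes tested. The members' median log2 fold change was 0.81, and that of all genes tested was -0.003. Without DTR replicate 3 the members' median was 0.21, and 0 members were then below an unadjusted p of 0.05, as was also the case without Ctrl replicate 2 or Ctrl replicate 3. The count was 3 without Ctrl replicate 1 and 5 without DTR replicate 2, beside 8.35% and 7.59% of all genes in those fits.

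**Figure D2:**
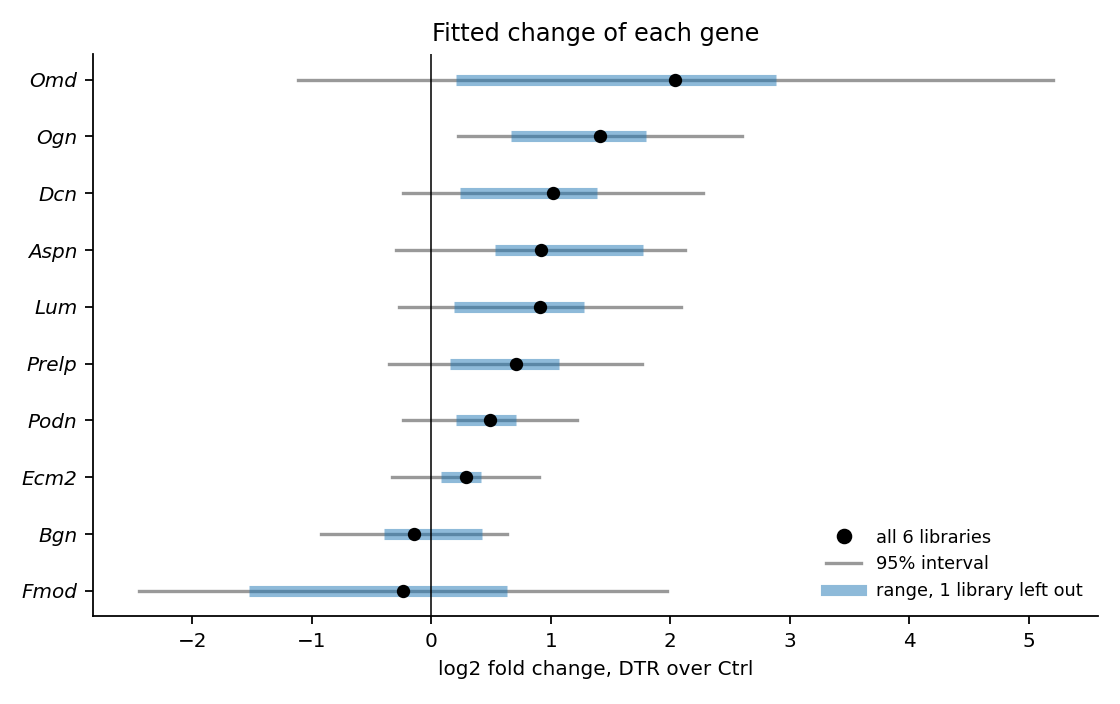
Fitted log2 fold change (DTR over Ctrl) of the 10 SLRP genes from edgeR, with black points for the estimate from all 6 libraries, grey lines for its 95% interval and blue bars for the range of estimates when 1 library is left out. Of these intervals only that of Ogn (0.22 to 2.60) lies above 0, and the blue bars of Bgn and Fmod cross 0.

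The members of class I are Dcn, Bgn, Aspn and Ecm2. Dcn (ENSMUSG00000019929, GRCm38 chromosome 10, 97479609 to 97518143, plus strand) had 5499, 1964 and 5041 counts in Ctrl and 8425, 4217 and 13618 in DTR. In CPM this was 225, 82.2 and 177 in Ctrl (161 ± 72.5, SD, n = 3) and 245, 136 and 601 in DTR (327 ± 243, SD, n = 3). DTR replicate 3 was far above the other libraries, DTR replicate 2 was below Ctrl replicates 1 and 3, and the groups overlapped. The log2 fold change was 1.02 (95% interval -0.23 to 2.27), with an adjusted p of 0.655 in edgeR's test with Benjamini-Hochberg adjustment. Without DTR replicate 3 it was 0.24.

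Bgn (ENSMUSG00000031375, chromosome X, 73483602 to 73495933, plus strand), which like decorin carries chondroitin or dermatan sulfate and binds TLR2 and TLR4 once released, went the other way. Its values were 264, 99.4 and 114 CPM in Ctrl (159 ± 90.7, SD, n = 3) and 130, 138 and 163 CPM in DTR (144 ± 17.3, SD, n = 3). Ctrl replicate 1 was the highest of all, and the 3 DTR libraries lay between it and the other Ctrl libraries, so that the spread was wide in Ctrl and narrow in DTR. The log2 fold change of Bgn was -0.15 (95% interval -0.92 to 0.63), with an adjusted p of 0.924 (edgeR quasi-likelihood test, Benjamini-Hochberg). Its sign rests on Ctrl replicate 1, without which the log2 fold change was 0.43 (adjusted p = 0.582 in the same test).

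Aspn (ENSMUSG00000021388, chromosome 13, 49544443 to 49567565, plus strand), a class I protein that carries an aspartate stretch and typically no glycosaminoglycan chain, binds collagen and TGF-β1. It was at 21.9, 7.04 and 5.66 CPM in Ctrl (11.5 ± 9.02, SD, n = 3) and at 19.5, 13.8 and 32.0 CPM in DTR (21.8 ± 9.32, SD, n = 3). Ctrl replicate 1 stood above DTR replicates 1 and 2, whereas the other Ctrl libraries were below all DTR libraries. The log2 fold change was 0.91 (SE 0.524, adjusted p = 0.664 in edgeR's test with Benjamini-Hochberg adjustment), and it was 1.78 without Ctrl replicate 1 and 0.53 without DTR replicate 3. Ecm2 (ENSMUSG00000043631, chromosome 13, 49504810 to 49532789, plus strand), a matrix protein related to decorin, was at 4.82, 3.56 and 4.57 CPM in Ctrl (4.32 ± 0.667, SD, n = 3) and at 4.83, 4.32 and 6.70 CPM in DTR (5.28 ± 1.26, SD, n = 3). It varied least of the family, and DTR replicate 1 was level with Ctrl replicate 1. Its log2 fold change was 0.29 (95% interval -0.33 to 0.90), and it was 0.083 without DTR replicate 3 and 0.17 without Ctrl replicate 2.

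**Figure D3:**
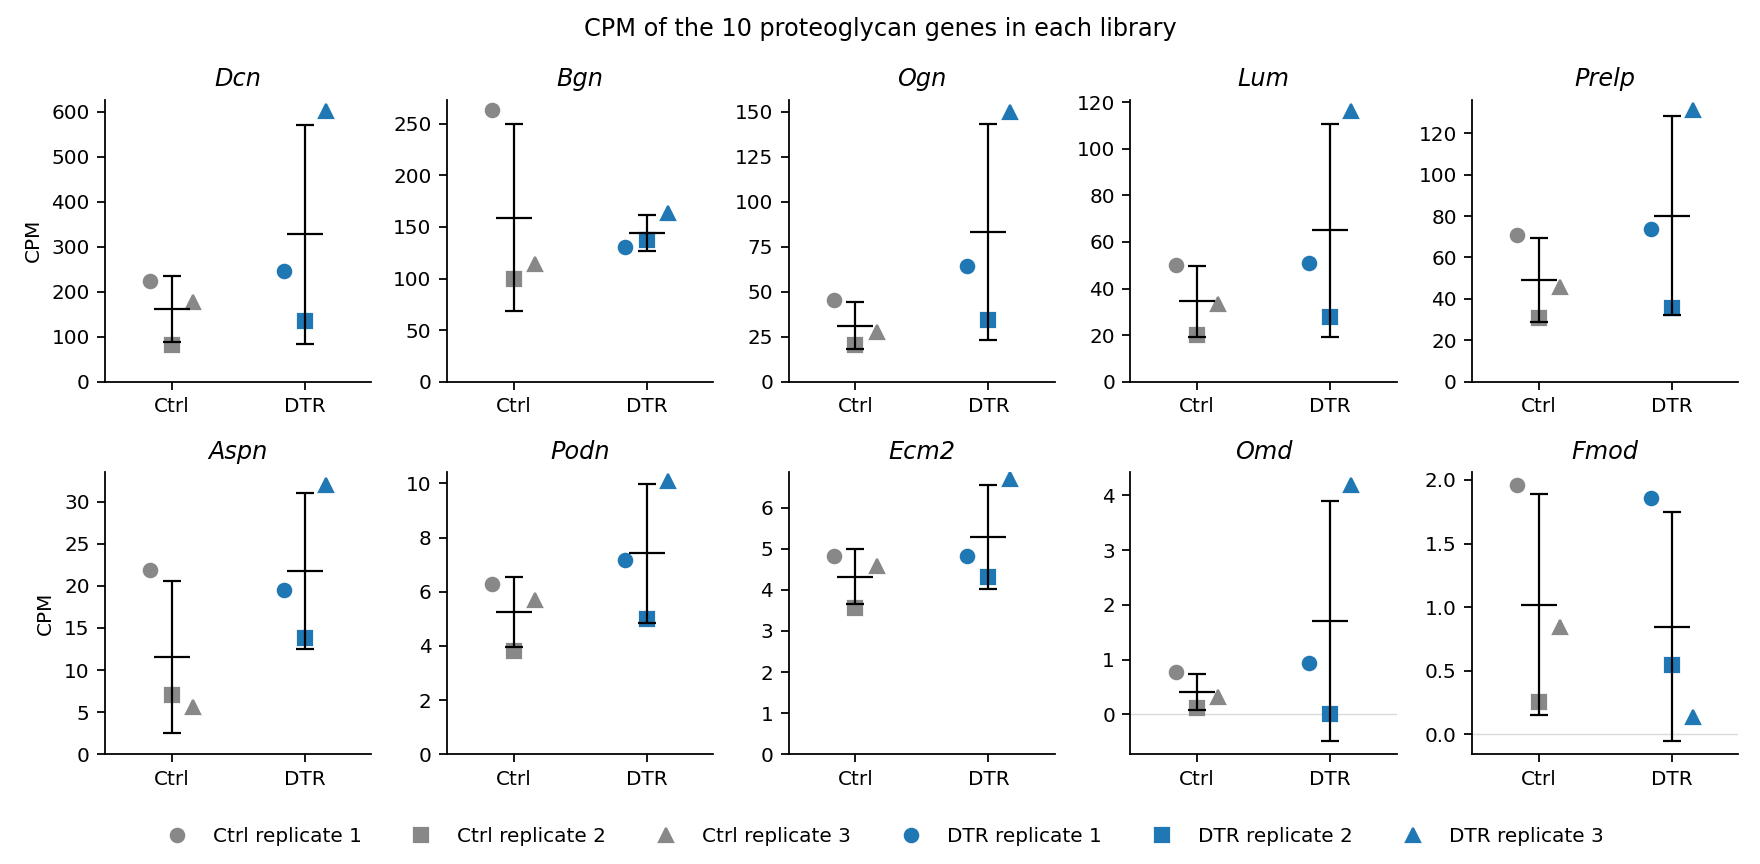
CPM of each SLRP gene in the 3 Ctrl and the 3 DTR libraries, 1 panel per gene with its own axis, with points for libraries (shapes mark replicates) and bars for the mean and SD. In 8 panels DTR replicate 3 is the highest point, and in those of Bgn and Fmod it is Ctrl replicate 1.

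Class II holds the keratan sulfate type members Lum, Fmod, Prelp and Omd. Lum (ENSMUSG00000036446, chromosome 10, 97565128 to 97572703, plus strand), which regulates the width of collagen fibrils in cornea and skin, was at 50.3, 20.1 and 33.2 CPM in Ctrl (34.5 ± 15.1, SD, n = 3). In DTR it was at 50.9, 27.7 and 116 CPM (64.9 ± 45.9, SD, n = 3). The first replicates of the groups were nearly equal, DTR replicate 2 lay within the Ctrl range and DTR replicate 3 above it. The log2 fold change was 0.91 (95% interval -0.27 to 2.09, adjusted p = 0.662 in edgeR's test with Benjamini-Hochberg adjustment). Without DTR replicate 3 it was 0.19.

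Prelp (ENSMUSG00000041577, chromosome 1, 133910304 to 133921414, minus strand) has a basic amino-terminal end that binds heparan sulfate and can tie basement membranes to collagen. Its level was 71.0, 30.7 and 45.5 CPM in Ctrl (49.1 ± 20.4, SD, n = 3) and 73.9, 35.4 and 131 CPM in DTR (80.1 ± 48.1, SD, n = 3). The libraries stood in the order seen for Lum, with DTR replicate 2 inside the Ctrl range. The log2 fold change of Prelp was 0.71 (95% interval -0.35 to 1.77), with an adjusted p of 0.697 (edgeR quasi-likelihood test, Benjamini-Hochberg), and 0.16 without DTR replicate 3. It turned to -0.089 when the melanoma marker level was a covariate.

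Fmod and Omd had few counts and were near the limit of detection in some libraries. Fmod (ENSMUSG00000041559, chromosome 1, 134037254 to 134048277, plus strand), a collagen fibril organizer of tendon, had 48, 6 and 24 counts in Ctrl and 64, 17 and 3 in DTR, or 1.02 ± 0.868 and 0.847 ± 0.903 CPM (mean ± SD, n = 3 each). DTR replicate 3, which was highest for most of the family, was lowest for Fmod. Its log2 fold change of -0.24 had a 95% interval from -2.45 to 1.97 and changed sign without Ctrl replicate 1 (0.64) and without DTR replicate 3 (0.25). The 5 tendon and fascia markers summed to 3.16 to 15.7 CPM in Ctrl and to 4.22 to 7.85 CPM in DTR, nearly all of it from Thbs4 (15.2 CPM in Ctrl replicate 1), while Tnmd, Scx, Mkx and Comp were each at or below 0.320 CPM in every library. Omd (ENSMUSG00000048368, chromosome 13, 49582462 to 49592822, plus strand), a keratan sulfate proteoglycan of mineralized tissue, had 19, 3 and 9 counts in Ctrl and 32, 0 and 95 in DTR. The 0 counts in DTR replicate 2 allow up to 0.0966 CPM, so the lowest and the highest library of Omd both belonged to DTR. The difference between the groups was within the spread of the DTR libraries (log2 fold change 2.04, 95% interval -1.12 to 5.20). It was 0.21 without DTR replicate 3, and its sign turned with the melanoma or the fibroblast marker level as a covariate (-0.67 and -0.20). Of the 50-base words of annotated Omd transcripts, 3.70% also occur in transcripts of other genes, so a few of its reads could have been shared.

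Ogn, the class III member, processed from a larger precursor and active in collagen fibril assembly, had the highest log2 fold change of the 8 members other than the sparse Fmod and Omd. It lies on GRCm38 chromosome 13 from 49608046 to 49624501 on the plus strand (ENSMUSG00000021390). The counts of Ogn were 1116, 485 and 779 in Ctrl and 2212, 1071 and 3401 in DTR. In CPM these were 45.6, 20.3 and 27.4 in Ctrl (31.1 ± 13.0, SD, n = 3) and 64.3, 34.5 and 150.0 in DTR (82.9 ± 60.0, SD, n = 3). DTR replicates 1 and 3 were above all Ctrl libraries and DTR replicate 2 above 2 of them, so the groups overlapped through Ctrl replicate 1 alone. The fold change was 2.66 (95% interval 1.17 to 6.07), with an unadjusted p of 0.0254 and an adjusted p of 0.602 (edgeR quasi-likelihood test, Benjamini-Hochberg), and a two-sided exact permutation test gave p = 0.2, where 0.1 is the smallest that 3 libraries against 3 can give. Without DTR replicate 3 the log2 fold change went from 1.41 to 0.67.

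Podn (ENSMUSG00000028600, chromosome 4, 108014791 to 108096445, minus strand), the class V member, has been linked to restraint of smooth muscle cell growth. It was at 6.29, 3.81 and 5.69 CPM in Ctrl (5.26 ± 1.29, SD, n = 3) and at 7.15, 4.99 and 10.1 CPM in DTR (7.42 ± 2.56, SD, n = 3). DTR replicates 1 and 3 exceeded all Ctrl libraries and DTR replicate 2 lay among them. The log2 fold change was 0.49 (95% interval -0.24 to 1.22, adjusted p = 0.691 in edgeR's test with Benjamini-Hochberg adjustment), and 0.21 without DTR replicate 3.

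Promoter sequences are shown for Ogn, for its neighbor Aspn and for Bgn, because the ratios of Bgn to Ogn and to Aspn within a library, given further on, did not overlap between the groups. Each is the stretch of 250 bases before the RefSeq transcription start (build GRCm38.p6), 5′ to 3′ on the plus strand, with motif matches in capitals. In Ogn and Aspn the capitals mark TATAAA or its reverse complement TTTATA (overlapping in Ogn) and, in Ogn, GGAATG, the letters bound by TEAD factors. In Bgn they mark CCGCCC, the reverse complement of the GC box GGGCGG, with the last pair of matches overlapping.
Ogn, chr13:49607765-49608014, plus strand: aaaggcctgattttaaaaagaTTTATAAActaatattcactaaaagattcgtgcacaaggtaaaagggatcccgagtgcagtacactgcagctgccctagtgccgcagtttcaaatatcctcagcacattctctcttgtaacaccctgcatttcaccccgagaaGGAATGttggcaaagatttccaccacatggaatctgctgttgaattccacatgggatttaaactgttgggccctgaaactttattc
Aspn, chr13:49544193-49544442, plus strand: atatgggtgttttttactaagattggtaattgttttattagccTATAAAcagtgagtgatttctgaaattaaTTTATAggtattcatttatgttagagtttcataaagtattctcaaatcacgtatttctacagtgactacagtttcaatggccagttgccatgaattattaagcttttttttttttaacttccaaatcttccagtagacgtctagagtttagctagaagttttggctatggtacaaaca
Bgn, chrX:73483351-73483600, plus strand: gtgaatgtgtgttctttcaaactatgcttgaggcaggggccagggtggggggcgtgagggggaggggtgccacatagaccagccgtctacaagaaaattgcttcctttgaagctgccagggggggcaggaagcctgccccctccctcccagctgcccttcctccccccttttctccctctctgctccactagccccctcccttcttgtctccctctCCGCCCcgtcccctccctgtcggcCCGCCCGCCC

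These windows differed in base composition, with 42.0% G and C in Ogn, 30.0% in Aspn and 64.4% in Bgn, around a median of 52.4% over 32851 windows. A RefSeq window was matched for 8 of the 10 members, all except Dcn and Lum, and Podn had more than 1 window. Members are counted below by gene, with a match in any window, whereas the shares are over all 32851 windows, which belong to 27025 genes. The matches in Ogn lie 229 to 224 and 227 to 222 bases (TATA letters) and 86 to 81 bases (GGAATG) before the start, those in Aspn 207 to 202 and 178 to 173 bases before it, and those in Bgn at 34 to 29, 10 to 5 and 6 to 1 bases. On either strand, TATAAA was found in 2 of 8 members (Ogn and Aspn) and in 12.4% of all windows, GGAATG in 1 (Ogn) and 12.6%, and GGGCGG in 3 (Bgn, Podn and Ecm2) and 32.7%. CAGGTG, the letters of a ZEB-type E-box, occurred in 1 member (Podn) and in 17.2% of all windows. The AP-1 letters TGACTCA or TGAGTCA (4.46% of all windows), the SMAD letters CAGACA (17.1%) and the TWIST-type E-box CATATG (3.46%) occurred in 0 member windows. A match describes letters in this window and does not show a bound site.

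The ratio of the counts of a pair of genes in the same library does not depend on how the libraries are scaled, and it shows which family members kept step with each other. Ratios were taken for all 36 pairs of the 9 members that had a count in every library. Dcn and Lum kept the closest step, with 4.47, 4.09 and 5.34 Dcn counts per Lum count in Ctrl and 4.81, 4.91 and 5.17 in DTR. The SD of this ratio over the 6 libraries was 0.141 on the log2 scale, the lowest of the 36 pairs, whose median was 0.620, although the counts of Dcn varied between 1964 and 13618. Among the 14880 other genes with a count in every library, 5 had a lower SD relative to Lum, namely Serping1, Ecm1, Sned1, Ly6c1 and Slc43a3 (named after their values were seen), and the median SD was 0.935. Lum and Prelp (SD 0.155) and Podn and Ecm2 (SD 0.195) also varied little against each other. Dcn against Prelp was less even, with ratios from 2.68 to 4.58 (SD 0.272).

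In 5 of the 36 pairs the 3 DTR libraries were separated from the 3 Ctrl libraries, and 4 of these involved Ogn. Counts of Lum per Ogn count were 1.1, 0.990 and 1.21 in Ctrl and 0.792, 0.802 and 0.774 in DTR. For Dcn per Ogn they were 4.93, 4.05 and 6.47 in Ctrl and 3.81, 3.94 and 4.0 in DTR. The ratio of Ogn to Prelp was 0.642, 0.661 and 0.602 in Ctrl and 0.870, 0.974 and 1.14 in DTR. Relative to Dcn, Lum and Prelp, each DTR library thus held more Ogn than each Ctrl library did, DTR replicates 1 and 2 included. Counts of Bgn per Ogn count were 5.78, 4.89 and 4.18 in Ctrl and 2.03, 3.99 and 1.09 in DTR. Those of Bgn per Aspn count were 12, 14.1 and 20.2 in Ctrl and 6.71, 9.97 and 5.10 in DTR. Bgn against Dcn overlapped between the groups, with 0.852, 0.827 and 1.55 Dcn counts per Bgn count in Ctrl and 1.88, 0.986 and 3.68 in DTR. Each of the 5 pairs had p = 0.1 in the two-sided exact permutation test, the smallest it can give, and 0.675 after Benjamini-Hochberg adjustment over the 36 pairs. The background also differed between partners. Of all other genes, 12.5% were separated between the groups relative to Ogn (4 of 8 members), 2.67% relative to Lum (1 of 8 members) and 2.86% relative to Bgn (2 of 8 members).

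**Figure D4:**
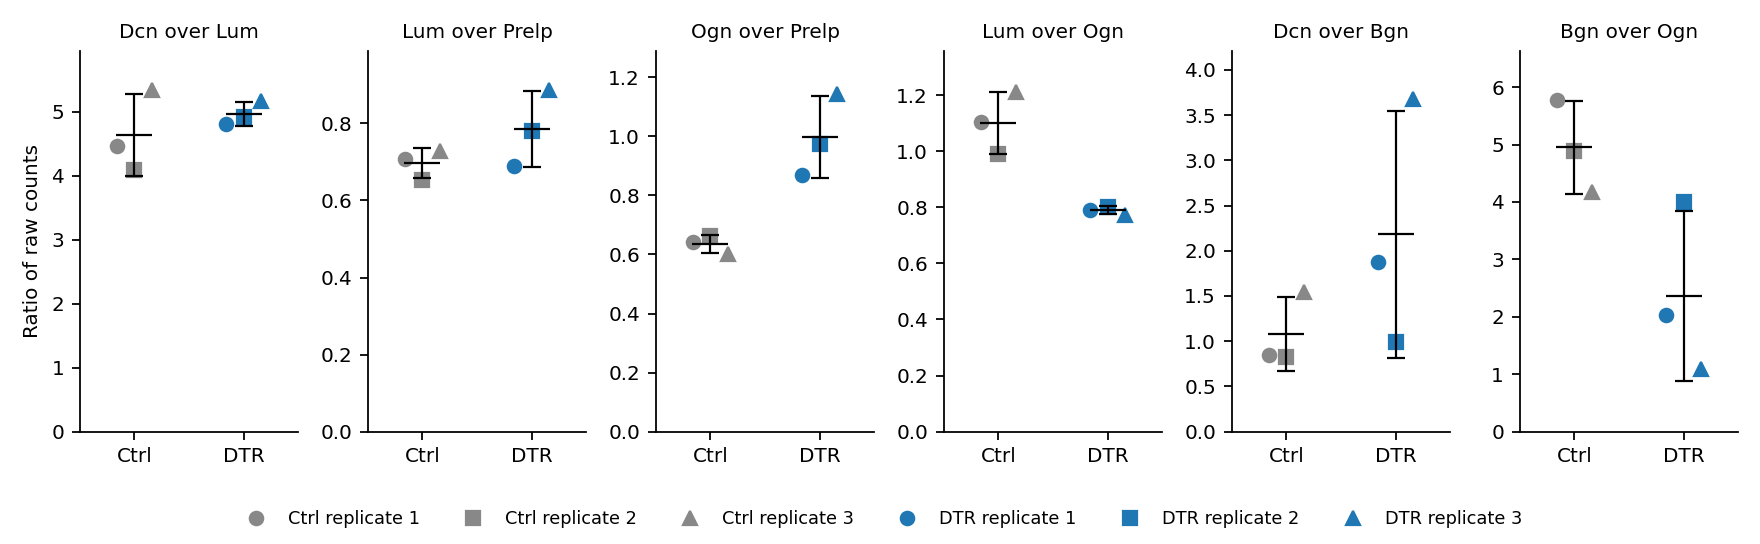
Within-library ratios of raw counts for 6 pairs of SLRP genes, 1 panel per pair with its own linear axis from 0, with points for the 3 Ctrl and the 3 DTR libraries (shapes mark replicates) and bars for the mean and SD. The ratio of Dcn to Lum stays between 4.09 and 5.34 in all 6 libraries, while the ratios of Lum to Ogn and of Bgn to Ogn of each DTR library lie below those of each Ctrl library.

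The same libraries were high or low for most of the family. DTR replicate 3 was the highest of the 6 libraries for 8 of 10 members, beside 20.9% of all genes tested, and a replicate 2 (of Ctrl or of DTR) was the lowest for 8 of 10, beside 32.1%. Averaged over the members, log2 CPM relative to each gene's own mean was 0.48, -0.96 and -0.33 in Ctrl and 0.47, -0.65 and 0.99 in DTR. The sparse Omd and Fmod weigh on this mean, Omd at -3.58 in DTR replicate 2 (0 counts) and Fmod at -2 in DTR replicate 3. The distances from the mean profile were taken with both genes in it. Relative to this mean profile, Prelp deviated least (root mean square 0.121) and Omd (1.57) and Fmod (1.41) most. The fibroblast markers had an average profile of 0.39, -0.74 and -0.32 in Ctrl and 0.11, -0.46 and 1.03 in DTR (root mean square distance 0.194), and the melanoma markers one of -0.09, 0.16 and 0.11 in Ctrl and -0.10, 0.06 and -0.13 in DTR. So the libraries low in SLRP transcripts were low in fibroblast markers as well, and the melanoma markers were highest in Ctrl replicate 2, where the SLRP genes were lowest. With the melanoma marker level as a covariate the members' median log2 fold change was 0.06, and with the fibroblast marker level, a covariate added after the data had been seen, it was 0.13. In these fits the log2 fold change of Ogn was 0.55 (SE 0.355) and 0.67 (SE 0.126). Its unadjusted p was 0.162 and 0.000675, and its adjusted p 0.734 and 0.537 (edgeR quasi-likelihood test, Benjamini-Hochberg).

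The adventitial fibroblast markers, Pi16, Dpp4, Cd34, Cd55 and Sema3c, summed to 380, 164 and 224 CPM in Ctrl and to 454, 204 and 1266 CPM in DTR. All 5 were highest in DTR replicate 3, and 3 of them (Dpp4, Cd55 and Sema3c) were higher in DTR at an unadjusted p under 0.05 in edgeR (3.81% of all genes tested were), with 0 passing the adjusted test and a median log2 fold change of 1.42. In DESeq2 1 of the 5, Cd55, had an unadjusted p under 0.05. Endothelial markers (6 of 6 detected) summed to 11.6 to 18.9 CPM in Ctrl and to 27.4, 13.5 and 79.0 CPM in DTR, of which Tek gave 62.9 CPM in DTR replicate 3. Mural cell markers (7 of 7 detected) were at 51.3 to 81.4 CPM in Ctrl and 42.1 to 52.3 CPM in DTR. Macrophage markers (6 of 7 detected, Itgam at 0) were at 75.3 to 141 CPM in Ctrl and 99.3 to 112 CPM in DTR, and T cell markers (5 of 5) at 4.29 to 27.3 and 7.76 to 11.8 CPM. Keratinocyte and adipocyte markers stayed at or below 0.735 CPM in every library, and skeletal muscle markers between 2.47 and 3.84 CPM. The part of these cells in the SLRP levels was not tested.

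By the rule of the smallest root mean square distance over the 6 libraries, genes outside the family near to its mean profile were Adamts5 (0.109), Cavin3 (0.127), Ehd2 (0.133) and Galnt16 (0.135), where the median over all genes tested was 0.743. Adamts5 is a protease that cleaves proteoglycans, and Cavin3 and Ehd2 belong to the machinery of caveolae. These are likenesses over the same 6 libraries, which differ in fibroblast marker level and in depth, to a mean that includes the sparse Omd and Fmod.

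**Figure D5:**
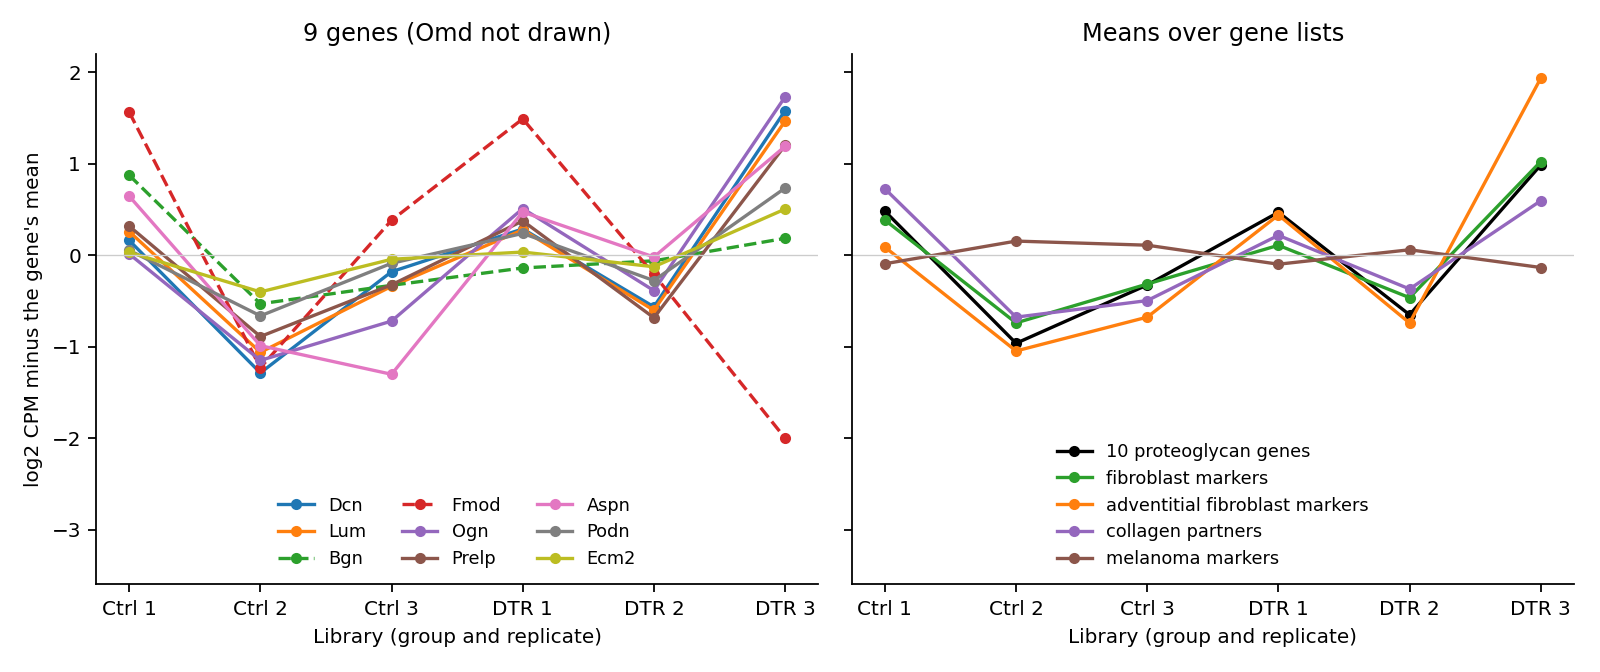
Log2 CPM of the SLRP genes relative to each gene's mean over the 6 libraries, by library (left, 9 genes, Omd not drawn), and the same averaged over the family, the marker lists and the collagen genes (right); lines only join the points of a gene or list. Apart from Fmod and Bgn, the plotted genes peak in DTR replicate 3 (family mean 0.99) and most are lowest in Ctrl replicate 2 (family mean -0.96).

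Most of the family lies in a few genomic clusters, whose members did not share a level. On chromosome 13, Ecm2, Aspn, Omd and Ogn follow each other on the plus strand with gaps of 11653, 14896 and 15223 bases. Within this cluster Ogn and Aspn were expressed at 22.2 and 7.07 CPM per kb, and Ecm2 and Omd at 0.845 and 0.470 CPM per kb. All 4 lie inside the span of Cenpp (49464023 to 49652785), a centromere protein gene on the opposite strand, which had 115 to 635 counts per library. Cenpp was at 8.29, 8.71 and 12.3 CPM in Ctrl and at 18.5, 13.7 and 5.07 CPM in DTR. It was lowest in DTR replicate 3, where Ogn and Aspn were highest. However, it was highest in DTR replicate 1, where Ogn was also above every Ctrl library. On chromosome 10, Dcn and Lum are 46984 bases apart, and their next neighbors Kera and Epyc, SLRP genes of cornea and cartilage, had 0 counts in all libraries and at most 4 counts in any library. On chromosome 1, Prelp lies 2304 bases from Optc and 115839 bases from Fmod. Optc, a class III gene of the eye, had 2 to 20 counts per library, and Prelp overlaps an antisense transcript, Gm15851, with 3 to 44 counts. Podn shares 52607 bases of its span with Scp2 on the same strand, and Scp2 had 39 to 109 counts.

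Of 7 further SLRP genes, 2 (Optc and Tsku) were expressed enough to be tested. Tsku, a secreted inhibitor of Wnt and TGF-β signals, was at 12.5, 4.27 and 4.68 CPM in Ctrl and at 8.84, 8.05 and 12.5 CPM in DTR (log2 fold change 0.46, SE 0.418), and Optc had a log2 fold change of -1.33 (SE 0.732). Neither had an unadjusted p under 0.05. Kera and Chad had 0 counts in all libraries, and Epyc, Nyx and Podnl1 had at most 4, 6 and 14 counts in any library.

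The enzymes that build the chains of SLRPs were mostly expressed, and 0 of them were called by edgeR or by DESeq2 (0% and 0.151% of all genes). At an unadjusted p under 0.05 in edgeR, 3.81% of all genes tested were higher in DTR and 4.11% lower. In every DTR library, 6.32% of all genes tested were above all Ctrl libraries and 8.18% below them. Of the 6 enzymes of the linker tetrasaccharide all were tested, 0 had an unadjusted p under 0.05 and the median log2 fold change was -0.01, from -0.28 for B3gat3 to 0.21 for Xylt1, the xylosyltransferase that starts the chain. Xylt1 was higher and B3gat3 lower in every DTR library. Of 16 chondroitin and dermatan sulfate enzymes 12 were tested, with 1 higher and 1 lower at an unadjusted p under 0.05 and a median of 0.13. The higher one was Ust, a uronyl sulfotransferase, at 25.6, 24.0 and 23.9 CPM in Ctrl and 29.2, 35.2 and 46.9 CPM in DTR, and the lower one was Chpf, a chondroitin polymerizing factor, at 65.6, 69.5 and 58.1 CPM in Ctrl and 58.5, 48.1 and 54.2 CPM in DTR. Ust was higher in every DTR library (log2 fold change 0.60, SE 0.171, unadjusted p = 0.00840 and adjusted p = 0.602 in edgeR's test with Benjamini-Hochberg adjustment), whereas Chpf overlapped. Of 6 keratan sulfate enzymes 4 were tested, with 1 higher and 0 lower at an unadjusted p under 0.05 and a median of 0.15. That gene, Chst1, a keratan sulfate sulfotransferase, had a log2 fold change of 1.45 (SE 0.604) with overlapping groups, and Chst2 one of -0.51 (SE 0.539).

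Of 10 collagen genes whose products SLRPs bind, all were tested and 0 were called by either tool (0% of all genes in edgeR and 0.151% in DESeq2), with a median log2 fold change of 0.14. Col14a1, which codes for a fibril-associated collagen that binds decorin, was at 216, 121 and 96.0 CPM in Ctrl and at 269, 142 and 688 CPM in DTR, the only member higher at an unadjusted p under 0.05 (log2 fold change 1.34, SE 0.547). Its libraries stood much as those of Dcn did, with DTR replicate 3 far above the rest. Col12a1 had the lowest value (log2 fold change -0.26, SE 0.386), with Ctrl replicate 1 highest at 210 CPM. Of 12 ligands and receptors bound by SLRPs 11 were tested and 0 were called by either tool, with a median of 0.25. Tlr2, a receptor for soluble biglycan, was higher in every DTR library, at 1.84, 1.55 and 2.18 CPM in Ctrl and 3.11, 2.61 and 3.97 CPM in DTR, and Tgfb1 was lower in every DTR library, at 36.0, 35.6 and 33.3 CPM in Ctrl and 28.0, 31.6 and 25.7 CPM in DTR. Their unadjusted p-values were 0.0394 and 0.0286, and the adjusted ones 0.604 and 0.602 (edgeR quasi-likelihood test, Benjamini-Hochberg). Of all genes tested, 3.81% were higher and 4.11% lower at an unadjusted p under 0.05. In every DTR library, 6.32% of them were above all Ctrl libraries and 8.18% below. Kdr had the highest value of this list (log2 fold change 0.95, SE 0.697).

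Of 8 proteases that cleave SLRPs all were tested, and edgeR called 0 (0% of all genes) and DESeq2 called 1, Mmp13 (0.151% of all genes). The median log2 fold change was 0.18 in edgeR. At an unadjusted p under 0.05 in edgeR, 4.11% of all genes tested were lower. Mmp13, a collagenase that also cuts fibromodulin and biglycan, was at 2.94, 0.921 and 12.5 CPM in Ctrl and at 0.465, 0.354 and 1.15 CPM in DTR, the only one lower at an unadjusted p under 0.05 (log2 fold change -3.09, SE 0.941). Its adjusted p was 0.602 in edgeR's test and 0.0262 in the Wald test of DESeq2 (log2 fold change -3.06), both with Benjamini-Hochberg adjustment. Ctrl replicate 3 held most of its counts, and the groups overlapped through Ctrl replicate 2. Mmp2, a gelatinase of fibroblasts, had the highest value (log2 fold change 1.15, SE 0.523) and was at 418 CPM in DTR replicate 3 against 66.0 to 158 CPM in the others.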

How the data were processed

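The data were RNA-seq counts of sorted stromal cells in 6 libraries, 3 Ctrl and 3 DTR, with groups taken from the genotype label. Libraries were made with a stranded total RNA kit for very small inputs, which also captures unspliced RNA. Per the submitters' processing notes and the study's methods, the authors trimmed reads with cutadapt 3.4, aligned them to GRCm38 with STAR 2.7.3a and counted reads per gene with featureCounts 2.0.1, using strand information. The counts were deposited without normalization. Whether reads in introns or reads with several alignments were counted is not given in the sources used here. Beside them the authors deposited a score for each library (the count over a DESeq2 size factor, rounded) and the authors' DESeq2 comparison (mean signal over libraries, ratio or fold change, log2 fold change and p-values). None of these columns were used.

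Genes were kept by edgeR's filterByExpr (minimum count 10, minimum total 15), scaled by TMM and tested two-sided by quasi-likelihood in edgeR (glmQLFit, glmQLFTest) over all genes kept, with Benjamini-Hochberg adjustment and a threshold of 0.05. Log2 CPM for profiles and permutation tests used a prior count of 1. SE was obtained by dividing the log2 fold change by the square root of F. Levels per kilobase used the union of GENCODE M21 exons, which also gave coordinates (53706 of 53801 gene identifiers matched). Tools were Python 3.11.15 with matplotlib 3.10.9, and R 4.3.3 with DESeq2 1.42.0, edgeR 4.0.16 and limma 3.58.1. The steps were tested on simulated data.

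The SLRP genes, the pathway and marker lists and the tests were chosen with earlier results of these data known. Genes named are the 10 members, the lowest and highest tested gene of each pathway list, Adam12, Pdgfra and Pdpn, markers needed to give a level, SLRP neighbors in the genome, and the 5 genes nearest to the mean profile, of which 1 is not reported here. Genes named beyond this rule (Cenpp, Gm15851, Scp2, Tlr2, Tek and the other endothelial genes, the genes near Lum) were chosen after their values were seen. Alternatives were other scalings, count filters, robust moderation, DESeq2, a loess offset on genomic span (span 0.5), a replicate block, melanoma or fibroblast marker covariates, and each replicate left out.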

Additional observations from a re-analysis of the deposited data

How the results depend on the processing

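Over 18 fits of all genes, 0 SLRP genes were called in each. The number of genes called in all was 0 with edgeR, 31 with DESeq2 and 46 with DESeq2 plus the offset on genomic span, and it ran from 0 to 2 when single replicates were left out (2 without Ctrl replicate 1). The number of SLRP genes at an unadjusted p under 0.05, 1 in the reported fit, was 4 when genes with 1 count in any library were kept (beside 6.76% of all genes in that fit), 0 with robust moderation (7.83%) and 0 with the melanoma marker covariate (7.24%). It was 1 (Ogn) with the fibroblast marker covariate (7.33%), and from 0 to 5 with single replicates left out. It was 3 without Ctrl replicate 1 (8.35%), 5 without DTR replicate 2 (7.59%), and 0 without Ctrl replicate 2 (5.21%), Ctrl replicate 3 (6.09%) or DTR replicate 3 (6.07%). The cause was not tested. The members' median log2 fold change ran from 0.21 (without DTR replicate 3) to 1.17 (without Ctrl replicate 1) over left-out replicates and from 0.06 to 0.84 over the other alternatives. Of the members' fold changes, 57 with a replicate left out and 105 others kept their direction and their side of the threshold, and 3 of each kind did not. These were Prelp (-0.089) and Omd (-0.67) with the melanoma covariate, Omd (-0.20) with the fibroblast covariate, Bgn (from -0.40 to 0.43 over left-out replicates) and Fmod (from -1.53 to 0.64), where Bgn was at 0.43 and Fmod at 0.64 without Ctrl replicate 1 and Fmod at 0.25 without DTR replicate 3. The order of levels per kilobase kept 8 to 10 of 10 ranks with a replicate left out and 1 with genomic span. The labels number the replicates alike in both groups, but the deviations of same-numbered libraries correlated at 0.107, 0.129 and -0.0343, so they were not treated as pairs. With the replicate block, 2 SLRP genes had an unadjusted p under 0.05 (8.40% of all genes), and 0 were called. With 3 libraries a group, and counts of 0 to 95 for Omd and 3 to 64 for Fmod, the intervals of these genes are wide.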
